A study of Bos taurus with 12 samples.

Results

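The cell cycle and mitosis genes described here are 40 named genes of DNA replication and cell division, measured in blood RNA of 12 Holstein cows. They were taken by gene symbol from a deposited table of 27429 genes, and all 40 reached the minimum of 10 raw counts on average over the 12 libraries. By role, 23 belong to mitosis, 12 to DNA replication and 5 to entry into the cycle from the G1 phase. Mean raw counts of the members ran from 42.3 for CDK6 to 4860 for CCND3, so no member's mean lay close to the minimum. Single libraries went down to 11 raw counts for CDK6, 13 for MAD2L1 and 16 for KIF20A. MAD2L1 had a mean of 64 raw counts, which limits its precision.

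The supplemented group comprised 6 female Holstein cows that carry the treatment label mineral supplementation, and the control group comprised 6 female Holstein cows labelled Control. The series title names the supplement as trace elements given by injection around calving. Jugular blood was drawn from both groups on day 7 after calving and kept in RNAlater, and the RNA was depleted of haemoglobin transcripts before sequencing, with 1 library for each cow. The sources used here do not give the elements, their dose and day, what the control cows received, or the age and parity of the cows. The labels name the material as white blood cells, whereas the protocol describes blood from the vein without a step that separates cells.

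A dividing cell passes from G1, where D-type cyclins with CDK4 or CDK6 release E2F transcription factors, through DNA replication to mitosis, and the messenger RNAs of replication and of mitosis accumulate in successive phases. In healthy adults most circulating leukocytes are resting. Activated lymphocytes, plasmablasts and immature cells released from bone marrow are the usual sources of such transcripts in blood, and the G1 genes are also carried by cells that do not divide. In bulk blood, fewer cells of a type and less RNA per cell cannot be told apart.

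Library totals lay between 6778640 and 16851541 counts. All markers of T cells (12 of 12), B cells (10 of 10), monocytes (10 of 10) and neutrophils (11 of 11) were detected in every library, so the labelled material held these cell types in all cows. Supplemented cow 6 stood apart, with a summed level of neutrophil markers of 103267 CPM (counts per 1000000 counts, after TMM scaling), against 896 to 4589 CPM in supplemented cows 1 to 5 and 503 to 13367 CPM in controls. Of 10 markers of immature granulocytes 7 were found, 6 of them at 0 in some libraries, with sums of 1.89 to 309 CPM in supplemented cows and 0.394 to 86.9 CPM in controls, and their part in the results was not tested. The TMM scaling factor of supplemented cow 6 was 0.717. Log2 fold changes of members that were highest or lowest in this cow are given with and without it. Genes of the further lists are given with it only. One sequencing index was used for 5 supplemented and 3 control libraries and another for the rest.

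Which cell cycle transcripts differed between supplemented and control cows was read from a single fit over all 11990 genes with enough counts. None of the 40 members passed: the edgeR quasi-likelihood test left 0 with an adjusted p below 0.05, as for 0% of all genes tested, and DESeq2 and limma-voom also called 0 members. At an unadjusted p under 0.05 there was 1 of the 40, MAD2L1, against a background of 1.59% of all genes. In no member were supplemented and control cows without overlap, against 0.05% of all genes. Fold changes of the other 39 members lay between -0.43 and 0.32 on the log2 scale (supplemented over control), and they are given below as values that did not pass. A positive log2 fold change was found in 11 members and a negative one in 29, with a median of -0.11, against 6180 positive and 5810 negative and a median of 0.01 over all genes tested.

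**Figure D1:**
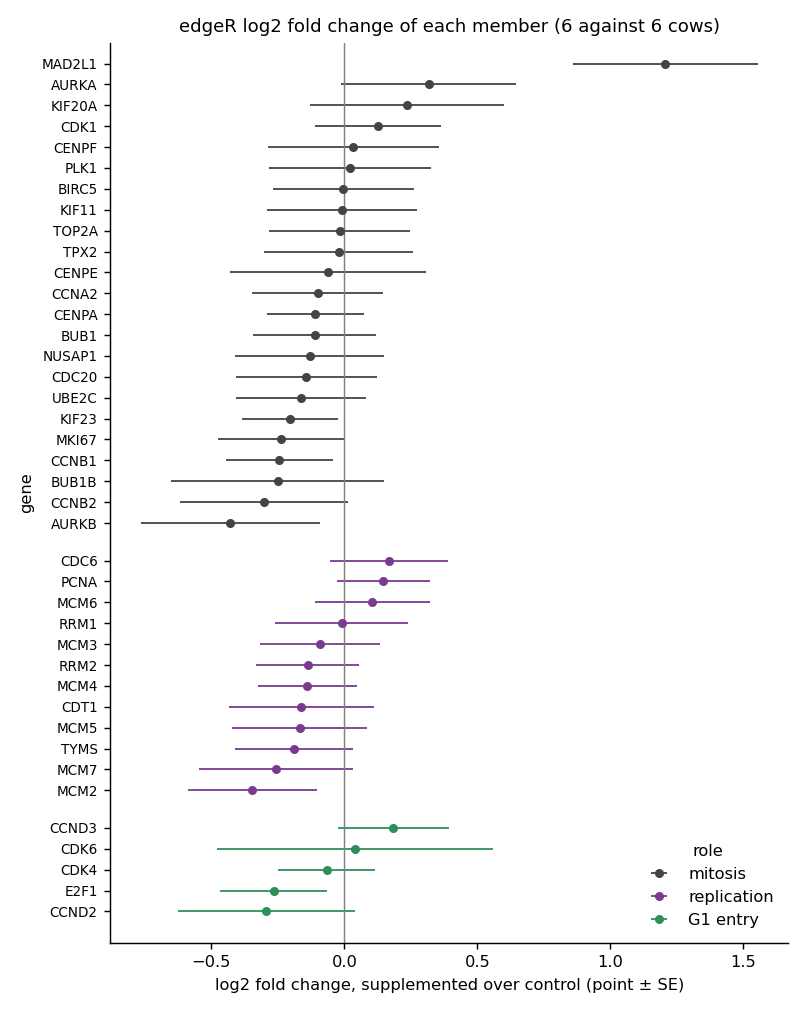
The horizontal axis gives edgeR's log2 fold change of each of the 40 members, supplemented over control (point, with bars for ± 1 SE, 6 cows a group), grouped by role. MAD2L1 at 1.21 is the rightmost point and no other member exceeds 0.32.

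MAD2L1 encodes MAD2, the spindle checkpoint protein that holds back anaphase until every chromosome is attached. Supplemented cows 1 to 6 had 9.76, 9.47, 2.71, 13.2, 7.02 and 8.95 CPM, and control cows 1 to 6 had 4.01, 3.41, 5.14, 2.94, 1.93 and 4.61 CPM. All supplemented cows but cow 3 (5 of 6) lay above the highest control cow, and supplemented cow 3 lay below 5 of the 6 control cows, so the groups overlapped through 1 animal. MAD2L1 averaged 8.52 ± 3.48 CPM in supplemented cows and 3.67 ± 1.17 CPM in controls (SD, n = 6 per group), a log2 fold change of 1.21 ± 0.35 (SE). The unadjusted p of edgeR's quasi-likelihood test was 0.00424 and the adjusted p 0.999, so the difference did not pass over all genes. Since MAD2L1 was singled out with this value already known, its values are a description. In the authors' deposited table MAD2L1 had a log2 fold change of 1.23, a standard error of 0.355, a p-value of 0.000543 and an adjusted p of 0.863 by DESeq2. The log2 fold change was 1.31 within the libraries of the first index (5 supplemented and 3 control cows), 1.29 with the index as a covariate, and between 1.05 and 1.40 when any 1 cow was left out. It was 1.25 with the neutrophil marker score as a covariate and 1.14 with the T cell marker score.

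MAD2L1 was then set against the other mitosis genes cow by cow. Its log2 CPM minus the mean log2 CPM of the other 22 mitosis members was -0.70 ± 0.71 in supplemented cows and -1.84 ± 0.49 in controls (SD, n = 6 per group). The mean of those 22 members itself was 3.69 ± 0.26 in supplemented cows and 3.74 ± 0.44 in controls on the log2 scale. Supplemented cows 4, 1 and 2, with the most MAD2L1, had means of 3.73, 3.80 and 3.66 for the other 22, close to 3.68 in control cow 6, whereas control cows 2 and 3, highest in the other 22 at 4.22 and 4.35, had 3.41 and 5.14 CPM of MAD2L1. Over the 12 cows, 0 of 22 correlations of MAD2L1 with another mitosis member had an adjusted p under 0.05 by Pearson's r or Spearman's rho (100000 permutations, two-sided, Benjamini-Hochberg over 22 relations). The highest r was with KIF20A, at r = 0.42 (permutation p = 0.169, adjusted p = 0.929) and rho = 0.46 (permutation p = 0.134, adjusted p = 0.738), with r = 0.34 once supplemented cow 4 and control cow 5 were left out, and the highest rho was 0.52, with TOP2A (permutation p = 0.0848, adjusted p = 0.738). The lowest by both measures was with KIF23, at r = -0.26 (permutation p = 0.417, adjusted p = 0.929) and rho = -0.29 (permutation p = 0.368, adjusted p = 0.957), with r = -0.18 without the same cows. The median r of MAD2L1 with the 22 others was 0.18, whereas the median over the 231 pairs among those 22 was 0.58, as a description over genes of the same libraries. Within the 8 cows of the first index these medians were 0.24 and 0.58, and r of MAD2L1 reached 0.57 with BUB1B, 0.56 with KIF20A and TOP2A and 0.54 with BUB1. Both groups were pooled in each of these r, and MAD2L1 was singled out for a group difference that the mean of the other 22 lacked. Such pooling can lower its r, and r within each group was not computed. Over all cows PLK1, at a median r of 0.15 with the other mitosis members, was the only mitosis member with a lower median than MAD2L1. Between cows the SD of log2 CPM was 0.83 for MAD2L1, the largest among mitosis members, and 19.96% of all genes tested had a larger one.

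**Figure D2:**
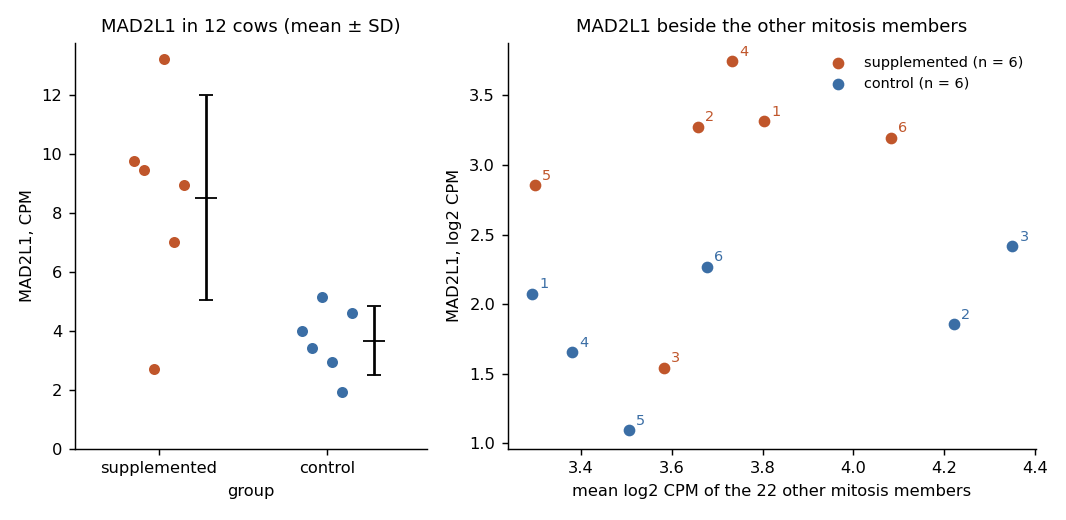
Left, CPM of MAD2L1 in each of the 6 supplemented and 6 control cows, with the mean and SD beside the points; right, log2 CPM of MAD2L1 against the mean log2 CPM of the 22 other mitosis members, each point a cow with its number. Supplemented cow 3 lies among the control cows in MAD2L1, and control cows 2 and 3 lie farthest right without being high in MAD2L1.

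The identity of the MAD2L1 counts carries a limit. In the RefSeq annotation of the assembly ARS-UCD2.0, which is not the build of the count table, the bovine gene named MAD2L1 has METTL15 and KCNA4 as its nearest protein-coding neighbours. In human, METTL15 and KCNA4 lie on a different chromosome from MAD2L1. Whether the counted gene is a copy of another locus, and whether reads are shared with one, was not tested.

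None of the checkpoint partners of MAD2L1 among the members had an unadjusted p under 0.05. BUB1, a checkpoint kinase, had 13.9, 18.3 and 20.9 CPM (lowest, median and highest) in supplemented cows and 12.01, 17.5 and 29.6 CPM in control cows, a log2 fold change of -0.11 ± 0.23 (SE). BUB1B, which encodes the checkpoint component BUBR1, had 3.85, 7.94 and 14.5 CPM in supplemented cows and 5.03, 7.77 and 19.6 CPM in controls (-0.25 ± 0.40 on the log2 scale). The groups overlapped in both genes, and control cow 3 was highest. CDC20, the activator of the anaphase-promoting complex that MAD2 holds inactive, stood at 8.52, 9.49 and 14.0 CPM in supplemented cows and 6.52, 10.8 and 19.4 CPM in controls (-0.14 ± 0.26). UBE2C, the ubiquitin-conjugating enzyme of that complex, stood at 9.23, 11.6 and 13.9 CPM in supplemented cows and 8.005, 11.2 and 23.4 CPM in controls (-0.16 ± 0.24). Each of these 4 genes turned to a log2 fold change between 0.04 and 0.09 without control cow 3. In a wider checkpoint list of 9 genes, 0 passed and 8 had a negative log2 fold change (median -0.10), among them KNTC1 (-0.25 ± 0.24), MAD1L1, the binding partner of MAD2 (-0.09 ± 0.13), and TRIP13, which remodels MAD2 (-0.14 ± 0.22).

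Of the mitotic kinases and their cofactors, PLK1, AURKA and BIRC5 were highest in supplemented cow 6, and AURKB and TPX2 were highest in control cows. PLK1, the polo-like kinase of mitotic entry, had 18.2, 24.0, 16.1, 20.1, 19.8 and 56.5 CPM in supplemented cows 1 to 6 and 21.8, 22.4, 26.9, 38.2, 22.98 and 20.3 CPM in control cows 1 to 6. Supplemented cow 6 was highest by a wide gap and control cow 4 was next, while the other 10 cows lay between 16.1 and 26.9 CPM. The log2 fold change of PLK1 was 0.02 ± 0.30 (SE) with this cow and -0.37 when it was left out. AURKA, the Aurora kinase of the spindle poles, reached 10.5 CPM in supplemented cow 6, against 3.06 to 5.03 CPM in supplemented cows 1 to 5 and 3.26 to 5.74 CPM in controls. Its log2 fold change was 0.32 ± 0.33, the second highest of the members, and -0.04 when that cow was left out. AURKB, the Aurora kinase of the chromosomal passenger complex, had 7.94, 10.4 and 13.9 CPM in supplemented cows and 6.25, 10.5 and 26.1 CPM in controls, and its log2 fold change of -0.43 ± 0.34 was the lowest of all members. Control cows 2 and 3, with 26.1 and 22.7 CPM, were the only cows above the 13.9 CPM of supplemented cow 1, and without control cow 2 the log2 fold change was -0.16. BIRC5, which encodes survivin of the same complex, was highest in supplemented cows 6 and 2, with 21.1 and 18.9 CPM, and its log2 fold change was -0.0036 ± 0.27, or -0.16 without supplemented cow 6. TPX2, the spindle assembly factor that activates Aurora A, had 16.5, 24.5 and 29.0 CPM in supplemented cows and 14.1, 19.3 and 41.1 CPM in controls (-0.02 ± 0.28).

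CDK1, the kinase that drives cells into mitosis, had 4.16, 5.56 and 7.31 CPM in supplemented cows and 3.58, 5.28 and 6.82 CPM in controls, a log2 fold change of 0.13 ± 0.24 (SE). Its cyclins lay on the other side of 0: CCNA2 at -0.10 ± 0.25, CCNB1 at -0.24 ± 0.20 and CCNB2 at -0.30 ± 0.32. CCNB1 had 4.10, 6.73 and 7.96 CPM in supplemented cows and 5.87, 7.14 and 9.58 CPM in controls, and 5 of 6 supplemented cows lay below the control median. CCNB2 reached 12.4 CPM in control cow 3, against 4.16 to 6.71 CPM in supplemented cows and 2.72 to 8.66 CPM in the other control cows. Without control cow 3 the value of CCNB2 was -0.04.

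Of the centromere genes, CENPA, the centromeric histone H3 variant, varied little, with 9.62, 11.8 and 16.1 CPM in supplemented cows and 10.3, 12.9 and 16.6 CPM in controls (log2 fold change -0.11 ± 0.18, SE). CENPE, the kinetochore motor, and CENPF, a large kinetochore protein, were both highest in supplemented cow 6 and lowest in control cow 1. CENPE stood at 16.7 CPM in supplemented cow 6, against 4.29 to 8.72 CPM in supplemented cows 1 to 5 and 3.01 to 12.1 CPM in controls. CENPF stood at 57.4 CPM in supplemented cow 6, against 16.5 to 31.8 CPM in supplemented cows 1 to 5 and 15.6 to 42.5 CPM in controls. The log2 fold changes were -0.06 ± 0.37 for CENPE and 0.03 ± 0.32 for CENPF, and without supplemented cow 6 they were -0.40 and -0.25. A wider list of 26 kinetochore and centromere genes had 0 that passed, with 8 genes above and 18 below 0 (median log2 fold change -0.11).

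The spindle motors spanned both signs. KIF11, the kinesin that keeps spindle poles apart, had 9.17, 15.7 and 18.4 CPM in supplemented cows and 8.74, 13.2 and 24.1 CPM in controls (log2 fold change -0.01 ± 0.28, SE). KIF23, a kinesin of the central spindle, had 6.31, 8.10 and 11.1 CPM in supplemented cows and 7.58, 9.32 and 11.3 CPM in controls (-0.20 ± 0.18), and 5 of 6 supplemented cows lay below the control median. KIF20A, a kinesin of cytokinesis, had 4.10, 6.35 and 9.37 CPM in supplemented cows and 1.96, 5.32 and 9.07 CPM in controls (0.24 ± 0.36). It was highest in supplemented cow 6, and without that cow its log2 fold change was 0.09. In each of the 3 motors the groups overlapped over most of their range. NUSAP1, a microtubule-bundling protein, stood at 11.7, 15.4 and 23.8 CPM in supplemented cows and 8.21, 15.8 and 27.4 CPM in controls (-0.13 ± 0.28). CCNA2, PLK1, KIF23, KIF20A and NUSAP1 each overlap another protein-coding gene in the ARS-UCD2.0 annotation, as do TYMS and CDT1, and no source used here states whether counting used strand, so the overlapping genes may share counts. A wider list of 23 spindle and cytokinesis genes had 3 positive and 20 negative log2 fold changes (median -0.14), with 0 that passed; CIT was at -0.51 ± 0.31 and KIF18B at -0.54 ± 0.34.

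MKI67, the Ki-67 proliferation antigen, had 198, 171, 127, 152, 130 and 180 CPM in supplemented cows 1 to 6 and 139, 262, 291, 127, 123 and 188 CPM in control cows 1 to 6. Control cows 2 and 3 were above every other cow, and the remaining 10 cows lay between 123 and 198 CPM with both groups intermixed. MKI67 averaged 160 ± 28.2 CPM in supplemented cows and 188 ± 72.5 CPM in controls (SD, n = 6 per group), a log2 fold change of -0.24 ± 0.24 (SE) that became -0.07 without control cow 3. TOP2A, the topoisomerase that untangles replicated chromosomes, had 37.0, 47.7 and 63.8 CPM in supplemented cows and 24.6, 40.2 and 85.6 CPM in controls. Its log2 fold change was -0.02 ± 0.26, and it was 0.22 without control cow 2, which held the highest value.

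Of the 23 mitosis members, 6 lay above and 17 below a log2 fold change of 0, with a median of -0.10, and 15 of the 23 were highest in control cow 2 or 3. The median was 0.00 without control cow 2 and 0.06 without control cow 3. Lowest values lay in control cows 1, 4 and 5 for 16 of the 23, and 11 of the 23 had both their highest and their lowest value in a control cow. The SD of CPM was larger in control cows for 14 of the 23. The matching shares over all genes tested were not computed, so these counts are not read as traits of the mitosis members.

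Replication genes had a median log2 fold change of -0.14, with 3 of 12 positive and 9 of 12 negative, and 0 passed. The median was 0.0045 without control cow 3, -0.01 without control cow 2 and -0.05 without supplemented cow 6. The MCM2 to MCM7 proteins form the ring-shaped helicase that unwinds DNA at the fork, and their transcripts moved together from cow to cow. MCM7 had 253, 148, 296, 215, 200 and 104 CPM in supplemented cows 1 to 6 and 232, 323, 344, 168, 129 and 258 CPM in control cows 1 to 6. Control cows 3 and 2 were highest, supplemented cow 6 and control cow 5 were lowest, and the groups overlapped over the range from 129 to 296 CPM. The log2 fold change of MCM7 was -0.26 ± 0.29 (SE), and -0.12 without supplemented cow 6. MCM2 had 40.9, 54.8 and 70.2 CPM (lowest, median and highest) in supplemented and 44.3, 56.2 and 111 CPM in control cows (-0.35 ± 0.24), and control cows 2 and 3 alone exceeded the 70.2 CPM of supplemented cow 1. Without supplemented cow 6, lowest in both, MCM2 was at -0.27 and MCM3 at -0.00083. MCM3 (-0.09 ± 0.23), MCM4 (-0.14 ± 0.19) and MCM5 (-0.17 ± 0.25) were all highest in control cow 2 and had log2 fold changes below 0. MCM6 had 54.8, 76.0 and 98.6 CPM in supplemented cows and 49.5, 64.3 and 98.3 CPM in controls, and at 0.11 ± 0.22 it was the only one of the 6 with a positive log2 fold change. Among the 15 pairs of these 6 genes r ranged from 0.71 to 0.95 with a median of 0.88, as a description over 12 cows that share their libraries.

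The loading factors of the helicase parted from each other. CDT1 had 8.70, 13.8 and 19.4 CPM in supplemented cows and 10.5, 14.3 and 24.2 CPM in controls (log2 fold change -0.16 ± 0.27, SE, and -0.045 without supplemented cow 6, which was lowest), and its median r with the other replication members was 0.89. CDC6 had 5.69, 7.57 and 12.6 CPM in supplemented cows and 5.74, 7.31 and 9.19 CPM in controls (0.17 ± 0.22), was highest in supplemented cows 2 and 1, and had a negative r with 6 of 6 MCM genes (median -0.23). PCNA, the sliding clamp of DNA polymerases, had 110, 142, 97.4, 96.0, 121 and 189 CPM in supplemented cows 1 to 6 and 103, 122, 125, 102, 133 and 97.4 CPM in control cows 1 to 6. Supplemented cow 6 was highest in PCNA and was at the same time lowest in MCM2, MCM3, MCM7, TYMS and CDT1. The r of PCNA with the 6 MCM genes, over all cows, ran from -0.63 to -0.17. Supplemented cow 6 bears on these r, as it deviated from the gene mean by 0.68 in PCNA and -1.01 in MCM7 (log2). Without that cow r was not computed, so the negative sign is not read as a trait of the other cows. The log2 fold change of PCNA was 0.15 ± 0.18 with supplemented cow 6 and 0.00036 when that cow was left out.

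Of the nucleotide enzymes, RRM1 and RRM2 encode the large and small subunits of ribonucleotide reductase. RRM1 had 50.2, 79.8 and 97.9 CPM in supplemented cows and 48.2, 73.3 and 109 CPM in controls (log2 fold change -0.01 ± 0.25, SE). RRM2 had 53.3, 67.7 and 76.2 CPM in supplemented cows and 52.3, 62.6 and 109 CPM in controls (-0.14 ± 0.19). The subunits differed in company: RRM2 had a median r of 0.68 with the mitosis members and 0.41 with the replication members, and RRM1 had 0.37 with mitosis and 0.77 with replication. TYMS, thymidylate synthase, stood at 9.45 CPM in supplemented cow 6, against 17.5 to 21.4 CPM in supplemented cows 1 to 5 and 13.0 to 27.7 CPM in controls, and its log2 fold change was -0.19 ± 0.22, or -0.05 without that cow.

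**Figure D3:**
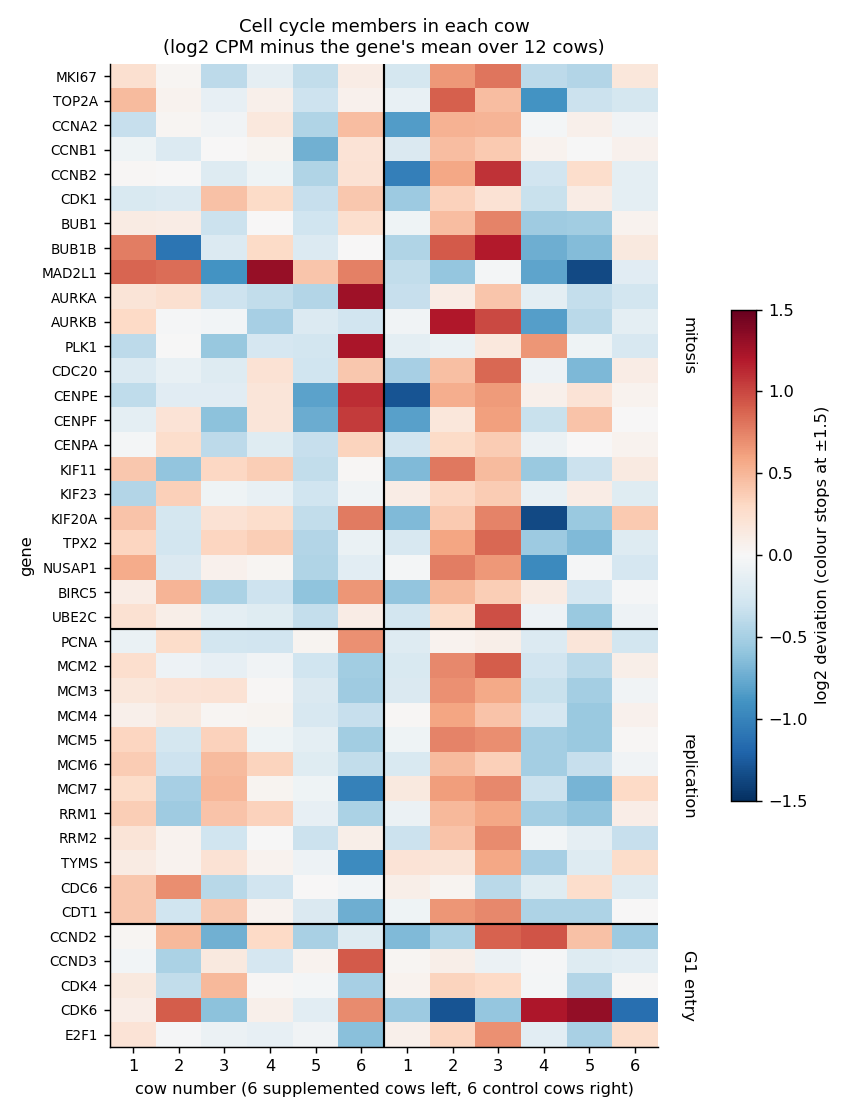
Each row is a member and each column a cow (6 supplemented left, 6 control right), and colour gives log2 CPM minus the mean of that gene over the 12 cows. Control cows 2 and 3 are red through most mitosis and replication genes, and supplemented cow 6 is red in mitosis genes such as PLK1 and CENPF and blue in MCM genes.

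Replication and mitosis genes were set against each other within each cow. The log2 ratio of summed CPM, replication over mitosis, was 0.85 ± 0.37 in supplemented cows and 0.85 ± 0.13 in controls (SD, n = 6 per group). Since CPM is not per length, only its differences between cows are read. Supplemented cow 6 had the lowest ratio at 0.22 and supplemented cow 3 the highest at 1.31, while the 6 control cows lay between 0.74 and 1.09. Supplemented cows thus held both extremes, and the group means differed by -0.0048. Relative to each gene's mean over all cows, the median mitosis member of supplemented cow 6 deviated by 0.25 and its median replication member by -0.50 on the log2 scale. In control cows 2 and 3 both medians lay above 0, at 0.47 and 0.62 for mitosis and 0.54 and 0.58 for replication. Without supplemented cow 6 and control cow 5 the difference of the ratio, supplemented minus control, was 0.10. Supplemented cow 6 is also the cow with 103267 CPM of neutrophil markers. With the neutrophil marker score as a covariate, chosen after seeing the data, the median log2 fold change of the replication members was 0.02. That of the mitosis members was -0.10. The part of neutrophil content in these values was not tested.

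**Figure D4:**
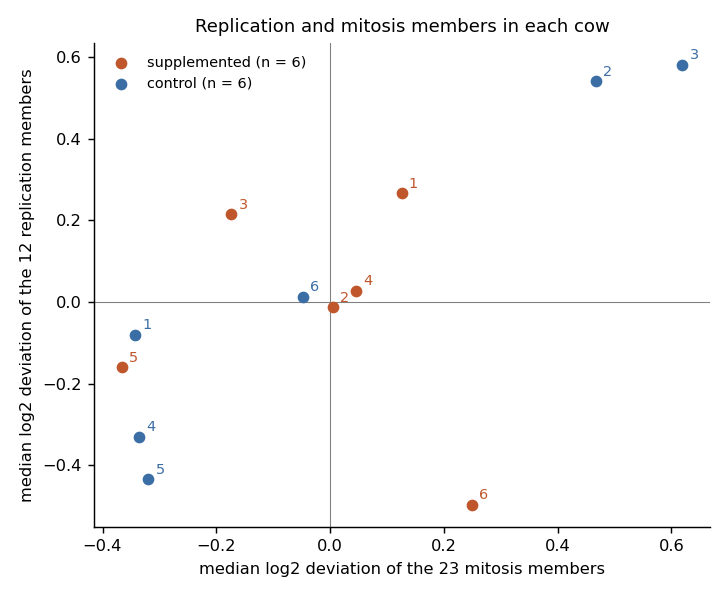
Median log2 deviation of the 12 replication members (vertical) against that of the 23 mitosis members (horizontal), each point a cow with its number, supplemented and control. Control cows 2 and 3 lie at the upper right, and supplemented cow 6 at the lower right, with -0.50 for replication and 0.25 for mitosis.

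The 5 genes of G1 entry did not vary as a unit, with a median r of -0.20 over their 10 pairs. CDK6, a cyclin D kinase, had 4.17, 7.40, 2.44, 4.08, 3.45 and 6.46 CPM in supplemented cows 1 to 6 and 2.58, 1.44, 2.52, 9.19, 9.93 and 1.65 CPM in control cows 1 to 6. Control cows 5 and 4 and supplemented cows 2 and 6 were highest, and the groups overlapped fully, with a log2 fold change of 0.04 ± 0.52 (SE). CDK4, its paralogue, had 71.6, 49.7, 90.3, 65.1, 63.2 and 45.7 CPM in supplemented cows 1 to 6 and 67.0, 81.5, 79.5, 63.0, 47.6 and 65.1 CPM in control cows 1 to 6. Supplemented cows 6 and 2 and control cow 5, high in CDK6, were the 3 lowest in CDK4, whose log2 fold change was -0.07 ± 0.18. Without supplemented cow 6 that of CDK4 was 0.02. The ratio of CDK4 to CDK6 CPM ran from 6.72 to 37.1 in supplemented and from 4.79 to 56.5 in control cows. CDK4 had a median r of 0.76 with the 6 MCM genes, and CDK6 a median r of -0.68 with the replication members. Both values pool all 12 cows, which part by their B cell score (below) with no overlap in CDK4 or CDK6 between the sets. Within each set r was not computed, so the pooled values may reflect that parting of cows.

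The remaining G1 genes each had a distribution of their own. CCND3, cyclin D3, stood at 909 CPM in supplemented cow 6, against 345 to 532 CPM in supplemented cows 1 to 5 and 421 to 511 CPM in controls. Its log2 fold change was 0.18 ± 0.21 (SE), and -0.04 with that cow left out. CCND2, cyclin D2, had 13.1, 20.8 and 30.6 CPM in supplemented cows and 13.7, 22.6 and 42.2 CPM in controls, with control cows 4 and 3 highest. The log2 fold change of CCND2 was -0.29 ± 0.33, and it was -0.95 within the libraries of the first index (5 supplemented and 3 control cows). In that edgeR fit CCND2 and MAD2L1 were the members with an unadjusted p under 0.05. Over all genes, 291 of 12086 tested were under 0.05 in the same fit. E2F1, the transcription factor released by G1 kinases, had 12.5, 18.5 and 22.4 CPM in supplemented cows and 13.8, 21.9 and 31.3 CPM in controls (-0.27 ± 0.20), and 5 of 6 supplemented cows lay below the control median. Without supplemented cow 6, which was lowest, its log2 fold change was -0.17. E2F1 had a median r of 0.84 with the MCM genes, again pooled over all cows. The wider G1/S list held 13 positive and 6 negative log2 fold changes (median 0.11), with 0 of 19 that passed.

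Whether members varied with the cell makeup of the samples was asked of 9 of them, MKI67, TOP2A, MAD2L1, PCNA, MCM6, CCND2, CCND3, CDK4 and CDK6, against the mean log2 CPM of 9 marker lists (81 relations, 100000 permutations, two-sided, Benjamini-Hochberg over the 81). Adjusted p was under 0.05 for 9 relations by Pearson's r and 11 by Spearman's rho, and they belonged to MCM6 and the G1 genes. Without supplemented cow 6 and control cow 5, 3 of the 9 passed by r, those of CDK6 with the monocyte, neutrophil and plasma cell scores. With no scaling factor 5 passed, CDK6 with the monocyte and T cell scores, CDK4 and MCM6 with the neutrophil score and CCND3 with the progenitor score. The cows also parted by their B cell score, so r is given within the 8 cows in which that score was higher (supplemented cows 1, 3, 4 and 5 and control cows 1, 2, 3 and 6). MKI67, TOP2A, PCNA and MAD2L1 had 0 that passed by either measure. Within the 8 cows of higher B cell score, r of MAD2L1 was higher for some scores, without a test. It was 0.74 with the monocyte, 0.73 with the T cell, 0.69 with the NK and cytotoxic and 0.64 with the progenitor score. For the plasma cell, neutrophil, immature granulocyte, platelet and erythroid scores it was 0.51, 0.34, 0.09, -0.12 and -0.33. CDK6 rose with the monocyte score, at r = 0.91 (permutation p = 0.0001, adjusted p = 0.0081) and rho = 0.88 (permutation p = 0.00033, adjusted p = 0.0134). Its r was 0.90 without supplemented cow 2 and control cow 6, the cows farthest from the median score, 0.92 within the 8 cows of the first index, and 0.82 within the 8 cows of higher B cell score. CDK4 fell with the same score, at r = -0.82 (permutation p = 0.00142, adjusted p = 0.0254) and rho = -0.76 (permutation p = 0.00628, adjusted p = 0.0462), with r = -0.90 without these cows, -0.89 within the first index and -0.56 within the cows of higher B cell score. Its adjusted p was 0.0904 without supplemented cow 6 and control cow 5, and 0.0788 with no scaling factor. The 10 monocyte markers summed to between 1120 and 8125 CPM in supplemented cows and between 837 and 5115 CPM in controls, none of them at 0, with lysozyme (LYZ) the most abundant at 531 to 5211 CPM.

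Neutrophil and lymphocyte scores moved with some of the same genes. CDK6 rose with the neutrophil score (r = 0.80, permutation p = 0.00123, adjusted p = 0.0254; rho = 0.87, permutation p = 0.00056, adjusted p = 0.0151), with r = 0.87 without supplemented cow 6 and control cow 2, 0.74 within the first index and 0.69 within the cows of higher B cell score, and an adjusted p of 0.0788 with no scaling factor. CDK4 fell with it (r = -0.79, permutation p = 0.00173, adjusted p = 0.0254; rho = -0.80, permutation p = 0.0031, adjusted p = 0.0418), with r = -0.66 without these cows, -0.82 within the first index and -0.51 within the cows of higher B cell score. MCM6 also fell with it (r = -0.80, permutation p = 0.00108, adjusted p = 0.0254; rho = -0.88, permutation p = 0.00031, adjusted p = 0.0134), with r = -0.82 without these cows, -0.84 within the first index and -0.62 within the cows of higher B cell score. Without supplemented cow 6 and control cow 5 the adjusted p was 0.184 for CDK4 and 0.0569 for MCM6. All 11 neutrophil markers were detected in every cow, at sums of 896 to 103267 CPM in supplemented cows and 503 to 13367 CPM in controls, and S100A12 was the most abundant. With the T cell score, CDK6 had r = 0.82 (permutation p = 0.00188, adjusted p = 0.0254) and rho = 0.76 (permutation p = 0.00519, adjusted p = 0.0449), with r = 0.72 without supplemented cow 2 and control cow 5, 0.75 within the first index and 0.51 within the cows of higher B cell score, and an adjusted p of 0.114 without supplemented cow 6 and control cow 5. CCND2 passed with the T cell score by rho only (rho = 0.80, permutation p = 0.00245, adjusted p = 0.0418; r = 0.73, permutation p = 0.00944, adjusted p = 0.0585), and its r was 0.69 without the same cows, 0.59 within the first index and 0.69 within the cows of higher B cell score. Also past the threshold by one or both measures were CDK4 and CDK6 with the NK and cytotoxic score, MCM6 with the monocyte and platelet scores, CDK6 with the plasma cell score and CCND3 with the haematopoietic progenitor score. Within the cows of higher B cell score r was -0.44 and 0.47 for CDK4 and CDK6 with the NK and cytotoxic score, -0.25 and -0.33 for MCM6 with the monocyte and platelet scores, 0.75 for CDK6 with the plasma cell score and -0.26 for CCND3. By r, CDK4 with the NK and cytotoxic score (adjusted p = 0.21) and CCND3 (adjusted p = 0.184) did not pass without supplemented cow 6 and control cow 5, and CCND3 (adjusted p = 0.0574) did not pass with a prior count of 0.5. CDK4 with the NK and cytotoxic score (adjusted p = 0.0797) and CDK6 with the plasma cell score (adjusted p = 0.161) did not pass with no scaling factor. Supplemented cows 2 and 6 and control cows 4 and 5 were highest in CDK6. They had 51.6 to 123 CPM of POU2AF1, the most abundant plasma cell marker, against 256 to 402 CPM in the other cows. They had 41.1 to 73.5 CPM of TBX21, the most abundant NK and cytotoxic marker, against 160 to 275 CPM. Both markers thus ran against the rise of CDK6 with their scores. CD5, the most abundant T cell marker, was highest in supplemented cow 2 (317 CPM) and lowest in supplemented cow 6 (107 CPM). The scores vary together between cows, and which cell type carries these transcripts was not tested.

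**Figure D5:**
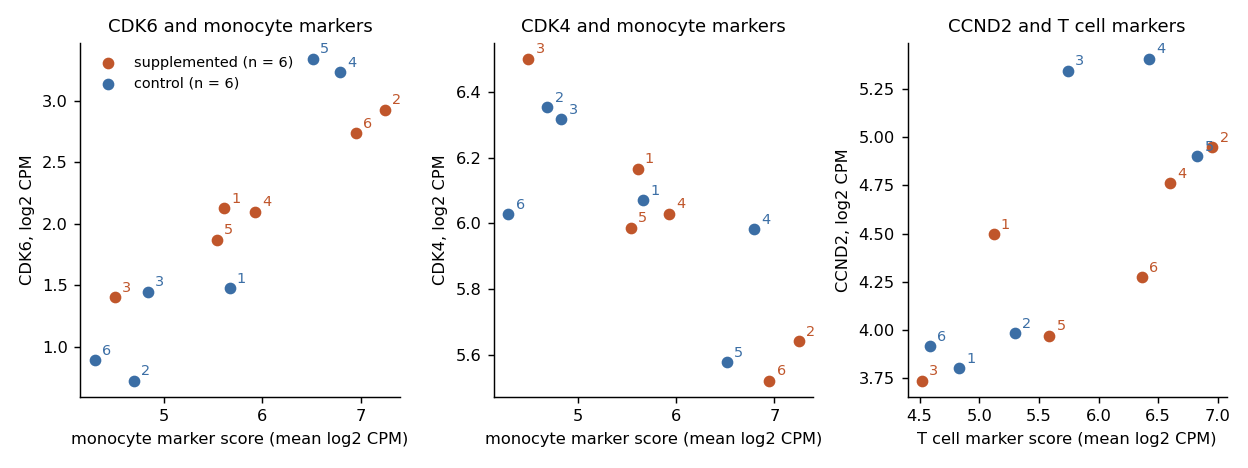
Log2 CPM of CDK6 and CDK4 against the monocyte marker score, and of CCND2 against the T cell marker score (mean log2 CPM of each marker list), each point a cow with its number, supplemented and control. CDK6 climbs and CDK4 declines along the monocyte score, with cows of both groups along the whole range.

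The B cell score parted the cows into separate sets, so no pooled correlation is given for it. It lay between 5.36 and 6.77 in supplemented cows 2 and 6 and control cows 4 and 5, and between 7.68 and 8.23 in the other 8. Those 4 cows had 6.46 to 9.93 CPM of CDK6, 45.7 to 63.0 CPM of CDK4 and 49.5 to 57.1 CPM of MCM6, and the other 8 had 1.44 to 4.17, 63.2 to 90.3 and 60.4 to 98.6 CPM of the same genes. In MKI67, TOP2A, MAD2L1, PCNA, CCND2 and CCND3 these sets of cows overlapped. The share of all genes tested without overlap between these sets was not computed. The r between members given above pool cows of both sets, and r between members within each set was not computed. Within the 8 cows, 0 of 9 members had a correlation with the B cell score that passed (exact permutation, lowest adjusted p = 0.174). That adjusted p belonged to CDK6 (r = -0.77, permutation p = 0.0284) and MAD2L1 (r = -0.73, permutation p = 0.0387). Their rho was -0.81 and -0.55.

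A further 10 lists held 204 other genes of replication, mitosis and their control, of which 198 had enough counts. By edgeR's quasi-likelihood test 0 of them passed, 0 had an unadjusted p under 0.05, and log2 fold changes were above 0 for 75 genes and below 0 for 123 (median -0.07). On the mitotic side FOXM1, the transcription factor of mitotic genes, averaged 3.97 ± 0.632 CPM in supplemented cows and 6.18 ± 3.35 CPM in controls (SD, n = 6 per group), at a log2 fold change of -0.64 ± 0.34 (SE). LIN9, a subunit of the MuvB complex that acts with FOXM1, averaged 6.79 ± 1.74 CPM in supplemented cows and 5.02 ± 0.591 CPM in controls (0.43 ± 0.21). On the replication side GINS4, a subunit of the active helicase, averaged 6.52 ± 1.16 CPM in supplemented cows and 8.55 ± 1.58 CPM in controls (-0.39 ± 0.19), and CDC45, its partner, lay at -0.34 ± 0.20. The list of CDK inhibitors and quiescence genes was the furthest above 0, with 9 positive and 4 negative of 13 tested and a median of 0.19. Its gene with the lowest p, CDKN2D, an inhibitor of CDK4 and CDK6, ranged from 26.5 to 452 CPM in supplemented cows and from 43.3 to 124 CPM in controls (0.84 ± 0.63). CDKN2D averaged 136 ± 162 CPM in supplemented cows and 75.7 ± 33.9 CPM in controls (SD). The supplemented SD thus exceeded the mean, and the value without supplemented cow 6 is not given here. The retinoblastoma relatives RBL2 and RBL1 stood at 0.30 ± 0.15 and 0.31 ± 0.20, and none of these values passed.

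In the authors' deposited table all 40 members were present, 0 had an adjusted p under 0.05 and 1, MAD2L1, an unadjusted p under 0.05. The sign of the fold change in the authors' deposited table was that of edgeR for 37 of the 40 members.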

How the data were processed

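RNA of 6 supplemented and 6 control cows was sequenced as read pairs of 150 bases on a NovaSeq instrument, per the labels' protocols. FastQC, STAR, featureCounts, DESeq2 and ARS-UCD1.2 as the build are listed in the submitters' processing notes; neither the annotation nor the strand setting is stated there or in the labels. The authors deposited whole-number gene counts, used as deposited, and a DESeq2 table of log2 fold changes with standard errors, p-values and adjusted p-values, per the file headers. Replicate numbers only name the cows, each of which carries its own animal number in the labels. The members and gene lists were chosen with earlier results of these data known. All 40 members matched the count table by symbol.

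Genes with a mean count of at least 10 over the 12 libraries (11990 of 27429) were fitted with edgeR 4.0.16 (TMM scaling, robust quasi-likelihood test, two-sided, Benjamini-Hochberg adjustment over all of them, threshold 0.05) in R 4.3.3. The step was tested on simulated data. Standard errors are the fold change over the square root of F. CPM is TMM-scaled, log2 CPM has a prior count of 2, and a marker score is the mean log2 CPM of its list. Totals of 6778640 to 16851541 counts limit precision for members of few counts. Named genes are all members and, of each further list, at most the 3 genes with the lowest p. Of the 204 further genes, CDC25C, SHMT1, CCND1 and CDKN2B had too few counts, and SKP2 and CDKN2A were not matched by symbol. Correlations used numpy 2.4.6 and pandas 2.3.3 in Python 3.11.15. RefSeq's ARS-UCD2.0 table served for names and neighbours only; 40 of 40 members matched it and 14 overlap another annotated gene. Alternatives were DESeq2 1.42.0, limma-voom 3.58.1, other scalings and filters, the sequencing index, cows left out, and, chosen after seeing the data, marker scores as covariates. Biochemical and milk tables were not used here.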

Additional observations from a re-analysis of the deposited data

Results flagged for a closer look

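Among 80 sets of 6 cows (40 members in each group), 6 held a value far from the other 5 by Dixon's criterion. At 1 in 20 about 4 would be expected if the sets were independent. They are not, since the members share the same 12 cows, so this figure does not gauge chance here. Of the 6 far values, 5 lay in supplemented cow 6. In supplemented cow 6 these were AURKA at 10.5 CPM (next 5.03 CPM), PLK1 at 56.5 CPM (next 24.0 CPM), CENPE at 16.7 CPM (next 8.72 CPM), CCND3 at 909 CPM (next 532 CPM) and, on the low side, TYMS at 9.45 CPM (next 17.5 CPM). In control cows it was PLK1, at 38.2 CPM in control cow 4 (next 26.9 CPM). Supplemented cow 6 and control cow 4 also had the highest and the second highest neutrophil marker score, 11.2 and 8.63, and the part of this in the values was not tested.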

How the results depend on the processing

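Under 23 alternatives no member reached an adjusted p under 0.05 (lowest 0.799, without control cow 5), and the direction of MAD2L1 and its unadjusted p under 0.05 held in each. Sign was kept throughout by 17 members and changed at least once in 23. DESeq2 called 2 genes, both unnamed and neither a member, and every other alternative called 0. Without control cow 3, 24 members had a positive log2 fold change, against 11 with all cows. Leaving out supplemented cow 6 left 10 positive and control cow 2 left 18. The median of mitosis members ranged from -0.19 (without supplemented cow 6) to 0.06 (without control cow 3) over the left-out cows, that of replication members from -0.21 (without control cow 5) to 0.0045 (without control cow 3), and that of G1 members from -0.18 to -0.06. Correlations with marker scores that passed by r numbered 5 with no scaling factor and 3 without supplemented cow 6 and control cow 5, against 9; CDK6 with the monocyte score passed in each. The low counts of members such as CDK6 and AURKA, which fall under a minimum mean count of 50, limit their precision. No paired analysis was possible because the labels give the cows no shared replicate numbers. The causes of the following sign changes were not tested. With limma-voom the log2 fold change was 0.077 for TOP2A, -0.074 for PLK1, -0.027 for CENPF, 0.021 for KIF11, 0.035 for TPX2 and 0.0027 for RRM1. With the index as a covariate the log2 fold change was 0.089 for TOP2A, -0.074 for PLK1, -0.029 for CENPF and 0.038 for BIRC5. Within the first index the log2 fold change was 0.21 for TOP2A, -0.17 for PLK1, -0.19 for CENPF, 0.23 for KIF11, 0.055 for TPX2, 0.0083 for NUSAP1, 0.017 for MCM5, 0.22 for RRM1, 0.082 for CDK4 and -0.80 for CDK6. With the neutrophil score as a covariate the log2 fold change was 0.15 for TOP2A, 0.0031 for BUB1B, -0.27 for PLK1, -0.14 for CENPF, 0.17 for KIF11, 0.15 for TPX2, 0.024 for NUSAP1, 0.063 for MCM3, 0.021 for MCM5, 0.15 for RRM1, 0.013 for CDT1 and 0.013 for CDK4. With the T cell score as a covariate the log2 fold change was 0.022 for TOP2A, -0.093 for PLK1, -0.10 for CENPF, 0.040 for KIF11, 0.025 for TPX2 and 0.060 for RRM1. Without supplemented cow 6 and control cow 5 the log2 fold change was -0.10 for AURKA, -0.40 for PLK1, -0.18 for CENPF, -0.0042 for KIF20A and -0.069 for CCND3. With upper-quartile scaling the log2 fold change was -0.062 for PLK1 and -0.036 for CENPF. With no scaling factor the log2 fold change was -0.14 for PLK1, -0.096 for CENPF and -0.035 for CDK6. With DESeq2 the log2 fold change was 0.0042 for KIF11 and 0.016 for BIRC5. At a minimum mean count of 50 the log2 fold change was 0.0062 for BIRC5. Over the 12 fits that left out 1 cow each, the log2 fold change ran from -0.15 to 0.22 for TOP2A, -0.23 to 0.0011 for CCNA2, -0.21 to 0.065 for BUB1, -0.45 to 0.038 for BUB1B, -0.041 to 0.45 for AURKA, -0.37 to 0.18 for PLK1, -0.26 to 0.068 for CDC20, -0.40 to 0.077 for CENPE, -0.25 to 0.17 for CENPF and -0.12 to 0.19 for KIF11. It ran from -0.13 to 0.20 for TPX2, -0.27 to 0.037 for NUSAP1, -0.16 to 0.11 for BIRC5, -0.27 to 0.087 for UBE2C, -0.19 to 0.062 for MCM3, -0.11 to 0.12 for RRM1, -0.21 to 0.019 for RRM2, -0.036 to 0.28 for CCND3, -0.18 to 0.021 for CDK4 and -0.14 to 0.43 for CDK6.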

Other observations

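Further lists of cell cycle genes, chosen with earlier results of these data known, gave values that did not pass. Their values without supplemented cow 6 are not given, so the part of that cow in them cannot be read here. Of 29 genes of the replication fork, 11 lay above and 18 below a log2 fold change of 0 (median -0.05), with POLD1, a polymerase delta subunit, at -0.40 ± 0.27 (SE), RNASEH2A, which removes RNA from DNA, at -0.39 ± 0.32, and LIG1, the ligase of replication, at -0.28 ± 0.27. The groups overlapped in all of these. Supplemented cows ranged from 24.0 to 62.4, 40.7 to 166 and 47.0 to 102 CPM, and controls from 32.0 to 82.0, 89.2 to 184 and 50.5 to 132 CPM. Origin licensing and firing genes stood at 6 above and 15 below 0 (median -0.05). ORC5, an origin recognition subunit, averaged 5.504 ± 4.55 CPM in supplemented cows and 3.30 ± 0.960 CPM in controls (SD, n = 6 per group). It ranged from 1.82 to 14.5 CPM in supplemented cows and from 1.59 to 4.15 CPM in controls, so the groups overlapped. Mitotic regulators stood at 10 above and 15 below 0 (median -0.12), with CDCA8, a chromosomal passenger protein, at -0.50 ± 0.30. The anaphase-promoting complex had 6 above and 12 below 0 (median -0.08), and its subunit CDC27 lay at 0.16 ± 0.13. Of 15 genes of nucleotide supply and S phase chromatin, 8 lay above and 7 below 0 (median 0.00043). DCK, deoxycytidine kinase, ranged from 7.04 to 115 CPM in supplemented cows and from 8.88 to 26.2 CPM in controls, and averaged 28.3 ± 42.5 CPM in supplemented cows and 14.6 ± 7.72 CPM in controls. The supplemented SD exceeded the mean, so the higher mean is not read as a shift of the group.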
